A study of Mus musculus with 2 samples.

Results

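The genes described here move glucose into muscle fibres, trap it there, and let lactate out. They are the glucose transporters Slc2a1, Slc2a3 and Slc2a4 (GLUT1, GLUT3 and GLUT4), the hexokinases Hk1 and Hk2, the lactate transporters Slc16a1 and Slc16a3 (MCT1 and MCT4) and Bsg (basigin), the membrane protein that carries both lactate transporters to the cell surface. Members were taken by gene symbol from the deposited tables, with every transcript model assigned to the known gene. Of the 8 genes, 7 had reads in each library, among 14704 annotated genes with reads in either. They held 102 of 76001 models in replicate 1 and 61 of 49981 in replicate 2.

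Glucose enters a muscle fibre down its gradient through GLUT proteins, and hexokinase phosphorylates it at once, which keeps it inside. GLUT4 is the insulin- and contraction-responsive transporter of striated muscle and fat, and in rodent muscle GLUT1 is the form of fetal life that GLUT4 replaces around birth. Hexokinase 2 is the main hexokinase of skeletal muscle, MCT4 the lactate exporter of glycolytic fibres, and MCT1 the form linked to lactate uptake in oxidative fibres.

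The RNA came from the gastrocnemius, the large calf muscle, of male B6CASTF1/J mice at 14 days of age, the first-generation offspring of C57BL/6 and CAST parents. The 2 libraries are biological replicates of 1 group, with 2 µg of input RNA each and no treatment, mutant or second age, so no contrast between conditions exists. The labels give both replicates the same donor identifier and mention several males in the sample names, without saying whether a replicate is a pool or which animals it came from. Each SD and test below therefore concerns the spread between these libraries, which may be in part technical. Levels are given as CPM, the reads of a gene per 1000000 reads of its library, and coordinates are on mm10 with the GENCODE M21 annotation. Levels of different genes are compared as CPM without division by length, taking each long read as 1 transcript molecule. This is an assumption, because the reads have no molecular identifiers and some are short unspliced pieces of a transcript. Transcript lengths are given where they matter.

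Without spike-in RNAs, the depth was 1094607 reads in replicate 1 and 626289 in replicate 2. A count of 0 allows up to 3 reads, which equal 2.74 and 4.79 CPM. As the tissue label calls for muscle, its markers were checked: 8 genes of fast fibres summed to 151037 and 121433 CPM, led by Atp2a1 and Mylpf, against 1952 and 2556 CPM for 7 markers of slow fibres, led by Tnnt1 and Myh7. Of other cell types, 6 fibroblast and matrix genes summed to 7609 and 3029 CPM (Col1a1 and Col3a1 led), and 5 of the 8 listed erythroid genes had reads, 771.1 and 1423 CPM in sum, mostly of Hba-a1 and Hbb-bs, while Slc4a1 was at 0 and Ahsp was not matched in the annotation. The endothelial list summed to 368.2 and 260.3 CPM (Cldn5 and Egfl7 led), the adipocyte list to 116.0 and 245.9 CPM (Fabp4 and Cfd led, Lep and Retn at 0) and the macrophage list to 72.2 and 68.7 CPM (Lyz2 and C1qa led, Ptprc at 0). In bulk tissue, fewer cells of a type and less RNA per cell cannot be told apart.

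Slc16a3 and Bsg were the most abundant of the set, Slc2a4 was next, Slc2a1 had few reads and Slc2a3 had none. Slc16a3 had 1138 reads in replicate 1 and 431 in replicate 2, which equal 1040 and 688.2 CPM (863.9 ± 248.5, SD, n = 2). Bsg had 944 and 456 reads, 862.4 and 728.1 CPM (795.3 ± 95.0). The order of these 2 genes was not the same in both libraries: replicate 1 held 1.21 Slc16a3 reads per Bsg read (95% interval 1.11 to 1.32) and replicate 2 held 0.945 (0.827 to 1.08). Among genes ordered by reads, Slc16a3 ranked 74 and 144, and Bsg ranked 92 and 138.

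Slc2a4 had 235 and 73 reads, 214.7 and 116.6 CPM (165.6 ± 69.4). Hk2 had 52 and 31 reads, 47.5 and 49.5 CPM (48.5 ± 1.41). Slc2a4 and Hk2 kept their places below Bsg in both libraries, with intervals that did not overlap with those of their neighbours. Hk1 had 18 and 6 reads (16.4 and 9.58 CPM) and Slc16a1 had 15 and 6 (13.7 and 9.58 CPM), so these 2 genes were not distinguishable from each other at this depth. Slc2a1 had 4 and 3 reads, and Slc2a3 had none in either library, which allows up to 3.37 CPM in replicate 1 and 5.89 CPM in replicate 2 by the exact Poisson limit.

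**Figure D1:**
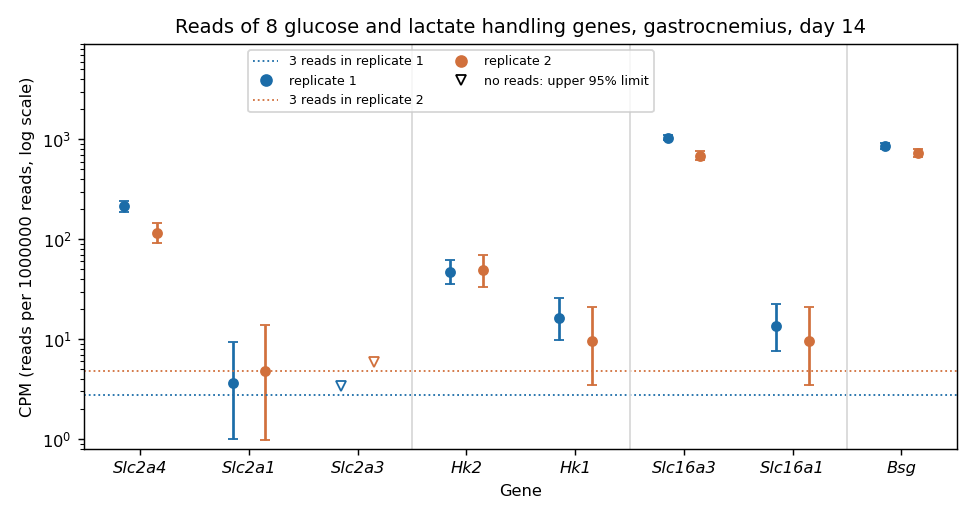
CPM of the 8 genes on a log axis, with 1 point per library and exact 95% Poisson intervals for counting error. Open triangles mark the upper limit for Slc2a3, which had no reads, and dotted lines mark the level of 3 reads. Slc16a3 and Bsg sit highest in both libraries, and Slc2a1 sits above the dotted line of replicate 1 and on that of replicate 2.

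Among the members, 1 glucose transporter, 1 lactate transporter and 1 hexokinase held most of the reads of its kind. These shares leave out the other genes of each family, such as Slc2a8 with 30 and 17 reads. Slc2a4 made up 98.3% of the reads of the 3 glucose transporters in replicate 1 (235 of 239, Clopper-Pearson 95% interval 95.8 to 99.5) and 96.1% in replicate 2 (73 of 76, 88.9 to 99.2). Slc16a3 made up 98.7% (1138 of 1153) and 98.6% (431 of 437) of the reads of the 2 lactate transporters, or 98.7% ± 0.051 (SD, n = 2). Hk2 made up 74.3% (52 of 70, 62.4 to 84.0) and 83.8% (31 of 37, 68.0 to 93.8) of the hexokinase reads. The Hk2 share depended on which reads were counted, since many Hk2 reads were short and unspliced. With spliced reads alone it was 64.0% (32 of 50) and 70.6% (12 of 17), and with complete annotated models alone it was 44.8% (13 of 29, 26.4 to 64.3) and 69.2% (9 of 13, 38.6 to 90.9).

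Of the 6 members with at least 10 reads, 3 differed between the libraries by Fisher's exact test with Benjamini-Hochberg adjustment over all genes, beside 13.5% of the 7955 genes tested. All 3 had a lower share in replicate 2, a direction called in 6.89% of genes, and 0 had a higher share, called in 6.56%. They are also the 3 most read members. In a separate run on genes with at least 50 reads alone, with its own adjustment, 33.2% of 3271 genes were called. Slc16a3 was 1.51-fold higher in replicate 1 (adjusted p = 3.74e-12), Slc2a4 was 1.84-fold higher (adjusted p = 5.36e-05) and Bsg was 1.18-fold higher (adjusted p = 0.0263). Hk2 (adjusted p = 1.00), Hk1 (0.595) and Slc16a1 (0.785) did not pass. The median log2 ratio of replicate 2 to replicate 1 was -0.52 over the 6 members and -0.24 over all genes tested.

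Long transcripts held a smaller share of replicate 2 in the whole table, though not in a steady decline with length. The running median log2 ratio was 0.04 at the length of Bsg, -0.38 at that of Slc2a4 and -0.51 at that of Hk2. At lengths between those of Slc2a4 and Hk2 it was -0.42 (Slc16a3), -0.36 (Hk1) and -0.33 (Slc16a1). When each gene was compared with the 100 genes on either side of it in transcript length, 6.45% of genes differed and Bsg was the member that passed (adjusted p = 0.0128). In this length-adjusted test neither Slc16a3 (adjusted p = 0.242) nor Slc2a4 (adjusted p = 0.107) passed. Bsg, which passed there, did not pass with TMM-scaled totals (adjusted p = 0.813), with replicate 1 thinned to the depth of replicate 2 (0.120), with annotated models alone (0.0897) or without the class of unspliced genomic reads (0.0698). The summed levels of the fibroblast, adipocyte, erythroid, endothelial, slow-fibre and fast-fibre markers, given above, were also unequal between the libraries. The adipocyte sum was mostly Fabp4 (114.2 and 207.6 CPM). No test was run on these sums, and their part in the differences of the members was not tested. Of the 8 fast-fibre genes, 4 were called higher in replicate 2 and 4 lower. Of the 7 slow-fibre genes, 2 were called higher and 2 lower, so neither sum describes each gene.

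Reads fell into 4 classes of model. Annotated models match a reference transcript intron by intron, and unannotated complete models hold a new combination or a new splice site. Partial models match a stretch of a reference transcript or of another model. A partial model of Slc16a3 with 6 and 3 reads, for example, used an unannotated donor. Genomic models are unspliced reads that overlap a gene, although some unspliced reads were classed as partial. All 23 annotated models of the members, counted in each library, had exactly the introns of the reference transcript. Annotated models held 90.5% ± 0.453 of Bsg reads, 85.2% ± 2.74 of Slc16a3 reads, 63.5% ± 4.62 of Slc2a4 reads and 27.0% ± 2.85 of Hk2 reads (SD, n = 2), beside 71.8% ± 0.062 over all annotated genes. Hk2 was the member with the lowest annotated share in both libraries.

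**Figure D2:**
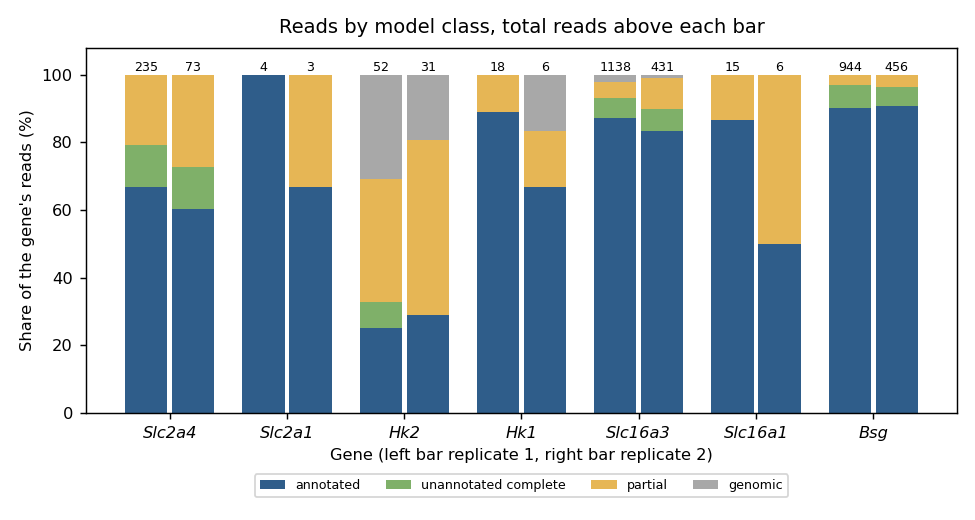
Share of each gene's reads in the 4 classes of model, with replicate 1 on the left and replicate 2 on the right of each pair and the reads of the gene above each bar. Bsg and Slc16a3 are mostly annotated, while Hk2 is mostly partial and genomic in both libraries.

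Slc2a4 reads followed 1 main transcript. Slc2a4-201, with 11 exons and 2524 bases, held 155 and 44 reads, and its coding part of 1527 bases is 509 codons long. Slc2a4-203 held 2 reads in replicate 1 and none in replicate 2. Partial models held 24.1% ± 4.63 of the reads, and the share of reads with an intron declined from the 3′ end of the transcript to the 5′ end, from 93.6% to 73.2% in replicate 1 and from 89.0% to 71.2% in replicate 2. Over both libraries 77.6% of Slc2a4 reads were complete, beside a median of 89.2% for genes with transcripts of 2000 to 3000 bases.

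The unannotated complete models of Slc2a4 that were seen in both libraries differed from Slc2a4-201 at the 5′ end, while others, seen in replicate 1 alone, differed there or further inside. The annotated first exon of Slc2a4-201 (chr11:69947949-69948149, minus strand) was the first exon of 72.8% of spliced reads in replicate 1 and 67.7% in replicate 2, counting all reads with its donor. An unannotated first exon upstream of it, joined by an intron at chr11:69948012-69948487, was used by 5 of 224 spliced reads (2.23%, 95% interval 0.729 to 5.13) and 7 of 65 (10.8%, 4.44 to 20.9). These intervals overlap only between 4.44% and 5.13%. Overlap is not a test, and whether this share differs between the libraries was not tested. The upstream exon adds no coding bases, because its intron lies before the annotated start codon. A first exon inside the first intron (chr11:69947155-69947412) had 6 reads in replicate 1 and 0 in replicate 2, and the annotated intron chr11:69948012-69948115 had 5 and 1. Of 13 unannotated complete models of Slc2a4, 3 were seen in both libraries. The upstream exon gave the most read of them (5 and 7 reads), and the others began at annotated first exons of other Slc2a4 transcripts, with 5 and 1 and with 4 and 1 reads.

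Slc2a1 reads, though few, were nearly all complete: 4 of 4 in replicate 1 and 2 of 3 in replicate 2 lay on Slc2a1-201, which has 10 exons and 3260 bases. The other read was a partial model of 7 exons. No read lay on the genes Gm12867 and Gm12868, which are annotated on the opposite strand within Slc2a1.

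The hexokinases have the same layout, and their transcripts were read differently. Hk2-201 and Hk1-202 each have 18 exons, coding parts of 2751 and 2754 bases, and a first coding exon that holds 63 coding bases. The protein end encoded there holds the segment with which hexokinases 1 and 2 bind the outer membrane of mitochondria. The sequences below, from the reference transcripts, show these 63 bases in the 2 forms that were read, followed by the coding starts of 2 upstream forms of Hk1 on which no read was placed. Start codons are in capitals. The Hk1-203 line joins its coding bases upstream of the exons it shares with Hk1-202.
Hk2-201, chr6:82773918-82773980, minus strand: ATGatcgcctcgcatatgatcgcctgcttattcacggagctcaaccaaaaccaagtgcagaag
Hk1-202, chr10:62340013-62340075, minus strand: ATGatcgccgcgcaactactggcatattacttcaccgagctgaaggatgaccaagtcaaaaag
Hk1-205, chr10:62342501-62342560, minus strand: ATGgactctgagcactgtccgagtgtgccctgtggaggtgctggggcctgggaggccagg
Hk1-203, chr10:62353058-62358362, minus strand: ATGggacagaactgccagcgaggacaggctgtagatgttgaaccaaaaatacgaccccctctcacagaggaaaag
The first coding exons of Hk1-202 and Hk2-201 were identical at 43 of 63 bases (68.3%), while Hk1-202 and Hk1-205 were identical at 20 of 60 (33.3%).

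Every annotated-model read of Hk1 followed Hk1-202, 16 in replicate 1 and 4 in replicate 2, and began in the exon at chr10:62340013-62340542. The remaining reads were 3 partial reads and 1 unspliced read in the last exon. Of spliced reads, 88.9% (16 of 18, 65.3 to 98.6) and 80.0% (4 of 5, 28.4 to 99.5) reached this first exon. Complete reads made up 83.3% of Hk1 reads over both libraries, above the median of 72.4% for genes with transcripts of 4000 to 6000 bases. The antisense gene Hk1os had no reads.

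The RefSeq promoter table used here lists 2 start sites for Hk1, and the reads bear on which of them was in use. The table (build GRCm38.p6) matched 5 of the 8 members with 6 windows of 300 bases. The stretches shown are the parts of windows that lie before the first annotated exon within the window. They are given for the Hk1 start in use and the upstream Hk1 start, from which no complete read came. The start of Slc16a3 that nearly all its reads used is also shown. Annotated exons of other forms lie further upstream of both starts in use: those of Hk1-205 and Hk1-203, and the first exon of Slc16a3-201. Capitals mark the GC box GGGCGG on either strand, which the Hk1 stretches do not hold.
Hk1 start in use, chr10:62340543-62340671, minus strand: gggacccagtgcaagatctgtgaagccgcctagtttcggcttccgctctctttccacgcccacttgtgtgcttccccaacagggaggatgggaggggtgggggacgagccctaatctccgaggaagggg
Hk1 upstream start, chr10:62379909-62380158, minus strand: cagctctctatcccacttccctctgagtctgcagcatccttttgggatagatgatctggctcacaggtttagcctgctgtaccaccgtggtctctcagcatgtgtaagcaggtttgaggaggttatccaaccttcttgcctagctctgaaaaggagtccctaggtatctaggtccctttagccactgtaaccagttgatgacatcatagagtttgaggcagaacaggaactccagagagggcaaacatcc
Slc16a3 start in use, chr11:120948817-120949052, plus strand: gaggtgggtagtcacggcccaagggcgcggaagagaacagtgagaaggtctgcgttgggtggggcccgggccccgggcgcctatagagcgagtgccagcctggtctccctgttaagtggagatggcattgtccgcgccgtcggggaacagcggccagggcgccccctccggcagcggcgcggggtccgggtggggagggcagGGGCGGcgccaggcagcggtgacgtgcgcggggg
Over the full windows, GC content was 63.3% at the Hk1 start in use, 51.3% at the upstream start and 73.3% at Slc16a3, beside a median of 52.7% over 32851 windows. The GC box was found 1 time at Slc16a3 and 3 times in the Hk2 window, and 35.7% of all windows hold at least 1. The letters ACGTG, searched on both strands, did not overlap the GC box in these windows and were found 2 times each at the Hk1 start in use, at Hk2 and at Slc16a3, 0 times at the upstream Hk1 start, and at least 1 time in 19.6% of all windows. These matches describe the letters alone.

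Hk2 differed from the other members in how much of it was unspliced. Unspliced reads numbered 20 of 52 in replicate 1 (38.5%, 25.3 to 53.0) and 19 of 31 in replicate 2 (61.3%, 42.2 to 78.1). Of these, 16 and 6 lay in the last exon, and all unspliced reads of Slc2a4, Slc16a3, Bsg and Hk1 lay in or touched theirs. The remaining 4 and 13 lay within the first exon at the 5′ end, which were 7.69% (2.14 to 18.5) and 41.9% (24.5 to 60.9) of all Hk2 reads, with intervals that did not overlap. No unspliced read of another member lay in a first exon.

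The near-equal Hk2 level of the libraries thus held different kinds of read. Spliced Hk2 reads numbered 32 in replicate 1 and 12 in replicate 2, and the full transcript Hk2-201, of 5513 bases, had 13 and 9. These are counts from libraries of unequal depth. With annotated models alone, which for Hk2 are Hk2-201, the log2 ratio of replicate 2 to replicate 1 was 0.32. It did not pass Fisher's exact test (adjusted p = 0.894), so the lower count of Hk2-201 in replicate 2 does not show a lower level. Complete reads made up 31.3% of Hk2 reads over both libraries, beside the median of 72.4% for genes of this length class and 83.3% for Hk1. In replicate 1 the share of reads that spliced an intron declined from 61.5% at the last intron to 26.9% at the first. In replicate 2 it was 38.7% at the last intron and 29.0% at the first. Another 3 introns of Hk2 were unannotated, each with 1 read. The antisense gene Gm17034 had 1 read in replicate 1 and 0 in replicate 2.

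**Figure D3:**
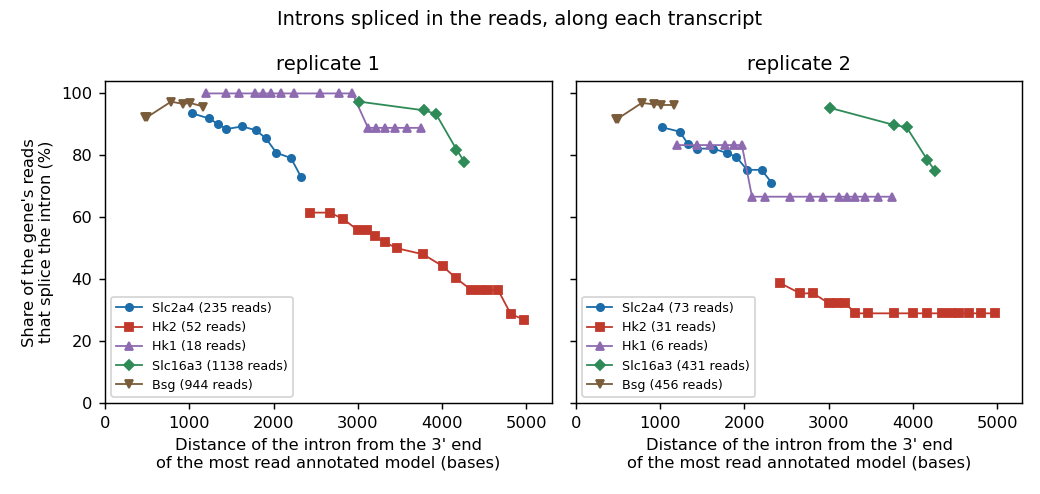
Share of each gene's reads that splice each intron of its most read annotated transcript, against the distance of the intron from the 3′ end of that transcript in bases, in replicate 1 (left) and replicate 2 (right). Hk2 lies lowest in both libraries, Slc2a4 declines towards the 5′ end, and Bsg, the shortest transcript, lies between 91.9% and 96.9% in replicate 2.

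Slc16a3 was read mostly as 2 annotated transcripts that differ by a noncoding exon. Slc16a3-208, with 6 exons, held 862 and 310 reads, and Slc16a3-202, with 5 exons, held 128 and 48. They made up 80.8% ± 0.969 and 12.2% ± 0.216 of the complete reads (SD, n = 2). The exon that separates them, noncoding exon 2 of 95 bases at chr11:120954174-120954268, was left out of 135 of 1017 reads in replicate 1 (13.3%, 11.2 to 15.5) and 51 of 372 in replicate 2 (13.7%, 10.4 to 17.6). The donor at the end of the shared first exon was used by 93.4% and 92.7% of spliced reads as the first. The annotated upstream form Slc16a3-201 had 2 reads and 1 read.

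A coding exon of Slc16a3 was also left out at times, through an intron that the annotation lacks. Exon 4, 144 bases at chr11:120955799-120955942, was skipped by 22 of 1085 reads (2.03%, 1.28 to 3.05) and 13 of 397 (3.27%, 1.75 to 5.53), on average 2.65% ± 0.882. The exon and the junction made without it are shown because the exon is 48 codons long, so the frame is kept: 470 coding codons become 422, and no stop codon appears at the join.
Slc16a3 exon 4, chr11:120955799-120955942, plus strand: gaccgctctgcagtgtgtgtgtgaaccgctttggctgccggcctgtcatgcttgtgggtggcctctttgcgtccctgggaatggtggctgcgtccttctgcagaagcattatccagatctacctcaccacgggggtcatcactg
Join of exons 3 and 5, the bases on either side in capitals: tgctctatggcacaGGcttgggtctggctc
The exon was skipped by 16 of 882 reads that held exon 2 and by 6 of 135 that lacked it in replicate 1 (1.81% and 4.44%), and by 8 of 321 and 3 of 51 in replicate 2 (2.49% and 5.88%). In both libraries the share was higher in reads that lacked exon 2, a difference that was not tested. The intervals of the 2 kinds of read overlapped in each library (1.04 to 2.93 against 1.65 to 9.42 in replicate 1, 1.08 to 4.85 against 1.23 to 16.2 in replicate 2).

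Slc16a3 had the most unannotated complete models, 27, of which 8 were seen in both libraries with at least 3 reads in all, 50 and 22 reads in sum. The model that lacks exon 4 alone had 16 and 8 reads, and the one that lacks exons 2 and 4 had 6 and 3. Another reads on from the first exon to chr11:120949663 before it splices (10 and 3 reads), and another holds an added exon of unannotated bounds, chr11:120949822-120950012, after the first (6 and 2). A model with the acceptor of exon 2 moved from 120954174 to 120954176 had 5 and 1 reads, and a model that joins the first exon to exon 5 had 3 and 2. The remaining 2 of these 8, with a shifted acceptor in exon 3 or a shifted donor in exon 2, had 4 and 3 reads over both libraries. A model of 8 exons, below this minimum, had 1 read in each library.

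The length listed for Slc16a3-208 and the ends of its other models differ. The annotated class takes its ends from the reference, so Slc16a3-208 is listed at 4335 bases. Of the spliced unannotated and partial models, those listed as ending at chr11:120958775 held 110 of 121 reads in replicate 1 and 52 of 53 in replicate 2. That position is also the annotated end of Slc16a3-201. Models listed as ending at chr11:120960868, the annotated end of Slc16a3-208, held 10 and 1 reads. A model carries 1 listed end for all its reads in a library, so the ends of single reads were not seen. With the nearer end Slc16a3-208 would hold 2242 bases. The length-adjusted test with this length, chosen after the data were seen, gave an adjusted p of 0.0813 for Slc16a3.

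Complete reads of Slc16a1 all followed 1 transcript. Slc16a1-201, with 5 exons and 4426 bases, held 13 of 15 reads in replicate 1 and 3 of 6 in replicate 2, the rest were partial, and no unannotated intron was seen. Over both libraries 76.2% of its reads were complete.

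Bsg exists as a common short form and a longer form, with an added immunoglobulin domain, that is best known from the retina. The short form Bsg-205, with 7 exons and 1261 bases, held 842 and 413 reads. The longer form Bsg-201, which adds an exon of 348 bases at chr10:79708697-79709044, held 2 reads in replicate 1 and 0 in replicate 2. Bsg was the most completely read member, with 96.7% of reads complete over both libraries.

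A choice near the 3′ end of Bsg was seen in both libraries, as was the other first exon of the annotated Bsg-202, a model with 6 and 1 reads. The annotated transcript holds an exon of 25 bases before the last exon, shown in capitals between its neighbours, and below it the first 60 bases of the exon of the longer form, which identifies that form.
Bsg-205, chr10:79710906-79711508, plus strand, introns left out: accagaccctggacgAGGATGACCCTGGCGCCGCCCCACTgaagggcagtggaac
Bsg-201 exon, chr10:79708697-79708756, plus strand: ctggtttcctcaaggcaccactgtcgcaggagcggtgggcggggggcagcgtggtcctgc
The 25-base exon was included by 94.1% of 926 reads in replicate 1 and 95.0% of 441 in replicate 2. An unannotated acceptor at chr10:79711466, 28 bases before the last exon, was used in its place by 52 reads (5.62%, 4.22 to 7.30) and 21 reads (4.76%, 2.97 to 7.19), on average 5.19% ± 0.604. Of 15 unannotated complete models of Bsg, the one that uses it, with 6 exons, was the most read (51 and 21 reads). Another, whose last exon begins at chr10:79711592, had 1 read in each library, and the rest were seen in 1 library. The change loses 25 bases and gains 28, a net gain of 3, which keeps the frame of what follows. Whether the read bases placed there are those of the 25-base exon was not tested, since read sequences were not used here.

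**Figure D4:**
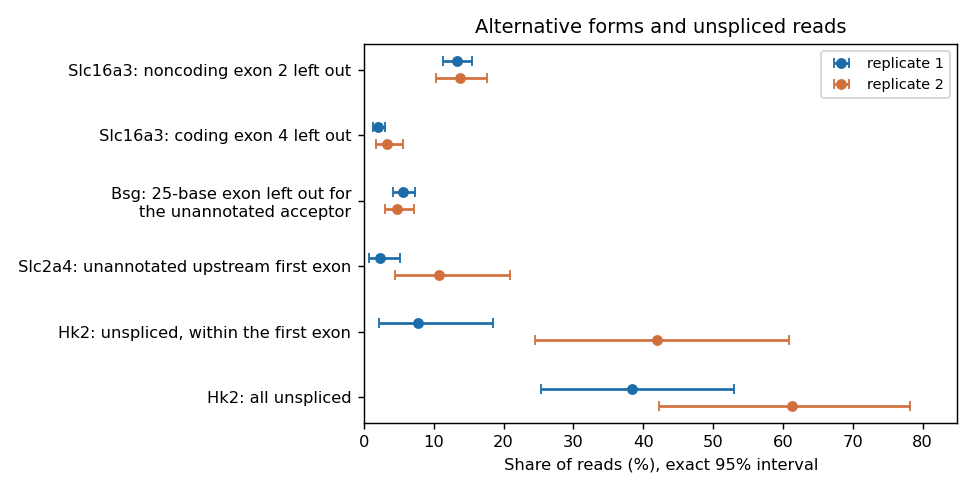
Share of reads for each alternative form and for unspliced Hk2 reads, as points with exact 95% intervals, with 1 colour per library. The Slc16a3 and Bsg choices overlap between the libraries, while the Hk2 reads within the first exon lie at 7.69% and 41.9%.

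The shares of complete models could be compared between the libraries for Slc2a4, Slc16a3 and Bsg, the members with at least 50 such reads in each. By Fisher's exact or chi-square tests 0 of these 3 differed (adjusted p = 1.00, 1.00 and 0.891, with none at an unadjusted p under 0.05), beside 2.08% of 960 genes. Models with few expected reads were pooled in these tests. For Slc2a4 this set Slc2a4-201 (83.3% and 83.0% of complete reads) against all its other models together. The Slc2a4 model with the upstream exon (2.69% and 13.2%) was therefore not tested alone. Unannotated introns made up 0.829% and 1.17% of the spliced introns of Slc2a4, 1.55% and 1.91% of those of Slc16a3 and 1.17% and 0.953% of those of Bsg. None were seen in Hk1, Slc16a1 or Slc2a1.

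Other genes of the pathway were read from 7 lists. Their calls come from the test without length adjustment, and length-adjusted values are not given for them. In that test 13.5% of all genes tested were called in either direction, and 6.89% were called lower in replicate 2. Of 12 other glucose transporters, 6 had no reads in either library, 4 could be tested and none of them passed. The most read were Slc2a8, an intracellular transporter (27.3 ± 0.186 CPM), Slc2a12 (18.7 ± 9.67 CPM) and Slc50a1 (12.9 ± 2.43 CPM). The mean CPM of each lay below that of Slc2a4 and above that of Slc2a1. Of 15 other monocarboxylate transporters and chaperones, 6 had no reads, and neither of the 2 tested passed. Slc16a10, an aromatic amino acid transporter, had 35.6 and 55.9 CPM, and Emb, the chaperone related to basigin, had 13.7 and 7.98 CPM, far below Bsg. Among other hexokinases, Hk3 and Hkdc1 had no reads. The mitochondrial channels to which hexokinase binds had 488.8 and 434.3 CPM (Vdac3), 425.7 and 314.6 CPM (Vdac1) and 292.3 and 245.9 CPM (Vdac2). Of the 3, Vdac1 passed, lower in replicate 2 (adjusted p = 0.00423).

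Of 15 genes that signal to GLUT4 from insulin or contraction, 12 could be tested and 2 passed, both lower in replicate 2, beside 13.5% of all genes tested called in either direction and 6.89% called lower. These were the kinase Akt2, which relays insulin's signal to GLUT4 (137.9 and 79.8 CPM, adjusted p = 0.00666), and the Rab regulator Tbc1d1 (34 and 4 reads, adjusted p = 0.00666), named after its values were seen. Akt1 had 180.0 and 130.9 CPM, Prkag3, the muscle subunit of AMP-activated kinase, had 124.2 and 124.5, and Rac1 had 74.0 and 59.1. Of 13 genes of GLUT4 vesicle traffic, 12 could be tested and 1 passed, the small GTPase Rab10 (322.5 and 223.5 CPM, adjusted p = 0.00295). Vamp3 (62.1 and 78.2 CPM), Aspscr1, which holds GLUT4 vesicles in the unstimulated cell (57.5 and 43.1), and Vamp2 (40.2 and 52.7) did not pass. The median log2 ratio of replicate 2 to replicate 1 was -0.38 in the first of these lists and -0.37 in the second, beside -0.24 over all genes.

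Of 8 regulators of the members, all could be tested and 3 passed, all lower in replicate 2. This stands beside the same 13.5% and 6.89% of all genes. In the separate run on genes with at least 50 reads, a minimum that some of the 8 do not reach, 33.2% were called in either direction. Txnip, which restrains glucose uptake, had 69.4 and 23.9 CPM (adjusted p = 7.24e-04), Klf15, a transcription factor that acts on Slc2a4, had 99.6 and 47.9 (adjusted p = 0.00277), and the hypoxia factor Epas1 had 64.0 and 28.7 (adjusted p = 0.0171). Mef2d, a transcription factor of the Slc2a4 promoter, had 84.1 and 71.8 CPM and did not pass. Of 5 genes that handle lactate and pyruvate, all could be tested and 1 passed: Ldha, the muscle subunit of lactate dehydrogenase, had 7702 and 7225 CPM (adjusted p = 0.00596). Ldhb, the heart subunit, had 133.4 and 111.8 CPM, and the mitochondrial pyruvate carrier genes Mpc1 and Mpc2 had 219.3 and 231.5 and 204.6 and 263.5 CPM.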

How the data were processed

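Long-read RNA sequencing of gastrocnemius was used, with 2 libraries of 1 group. Per the deposited files' headers, the authors' tables hold whole-number read counts per transcript model, with its class, number of exons and length, and a matching annotation of exons. The column names are those the program TALON writes. Per the labels the build is mm10. Aligner and read correction: not given in the sources used here. Reads of both parental alleles were placed on 1 genome. Counts were summed per annotated gene over all classes. ERCC spike-in contigs were left out, and other spike-in RNAs were not analysed here. Models were joined between libraries by strand and introns.

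Libraries were compared by two-sided Fisher's exact test of a gene's reads against the library, for genes with at least 10 reads, and by Fisher's exact or chi-square tests of complete models with at least 50 reads in each library, both with Benjamini-Hochberg adjustment at 0.05. Models with few expected reads were pooled in the tests of complete models. A length-adjusted exact binomial test used a running median over each gene and 100 genes on either side in length. Shares carry Clopper-Pearson 95% intervals and CPM exact Poisson intervals. Both describe counting error alone, not the spread between libraries. As the reads have no molecular identifiers, both take each read as 1 molecule. The tests were checked on simulated counts. Named are all 8 members, up to 4 of the most read genes of each pathway list with at least 3 reads in both libraries, and 2 of each marker list. A few genes of these lists, and 1 marker list, are not reported here. Members and lists were chosen with earlier results of these data known. Tests were run with scipy 1.17.1 and statsmodels 0.14.6, tables with pandas 2.3.3 and numpy 2.4.6 in Python 3.11.15, figures with matplotlib 3.10.9, and TMM factors (1.07 and 0.938) with edgeR 4.0.16 in R 4.3.3.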

Additional observations from a re-analysis of the deposited data

How the results depend on the processing

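The number of genes that differed between the libraries was 1070 and lay between 778 and 1085 over the other read minimums, TMM totals, thinning and narrower choices of model class. It was 508 with the length adjustment and 506 with the shorter Slc16a3 transcript, an alternative chosen after the data were seen, as was the count of spliced reads alone. Of the members, 3 were called in the main test, 2 or 3 in the alternatives without length adjustment, and 1 in each length-adjusted test. Genes whose model shares differed numbered 20, and 74 when partial models were included. The Hk2 share of hexokinase reads was 79.0% with all reads, 57.0% with annotated models, 60.4% with complete models and 67.3% with spliced reads. The Slc16a3 share was 98.7%, with 98.9% in annotated and 99.0% in complete models. Leaving out each replicate gave 74.3 to 83.8% for Hk2, 98.6 to 98.7% for Slc16a3 and 96.1 to 98.3% for Slc2a4. No called difference changed direction in any alternative run. That of Hk2, which was not called, was 0.07 on the log2 scale and -0.05 with replicate 1 thinned to the depth of replicate 2. No paired analysis was possible because there is 1 group. With 4 and 3 reads of Slc2a1 and none of Slc2a3, depth limits what can be said of both.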
